A study of Mus musculus with 4 samples.

Results

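The genes described here are the olfactory receptor (Olfr) genes of mouse chromosome 9. They were taken as the protein-coding genes of GENCODE release M21 on that chromosome whose symbol starts with Olfr, which gave 132 of the 21938 protein-coding genes on chromosomes 1 to 19, X and Y. Exposed chromatin was mapped by ATAC-seq, which uses a transposase to place sequencing adapters in open DNA, in primary T-helper 17 (Th17) cells from C57BL/6NJ mice. There were 4 biological replicates in 1 group with the same donor identifier, no stated treatment or control and no sex or age given. A p-value here comes from a sign-flip test and concerns only these 4 samples. It takes its smallest value, 0.125, whenever all 4 go the same way, whatever their spread. Each replicate has 1 list of accessible regions on the mm10 build, and the lists hold 83904, 85127, 85293 and 84137 regions in replicates 1 to 4. Only regions past the authors' threshold are listed, so weaker accessibility is not visible and the read depth is unknown.

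Olfactory receptors are odorant-detecting G protein-coupled receptors of the olfactory epithelium. Their genes stand in clusters, and a mature olfactory sensory neuron transcribes a single receptor allele, under the control of enhancers bound by LHX2, LDB1 and EBF factors, while the remaining receptor genes lie in heterochromatin. T-helper 17 cells are lymphocytes defined by the cytokine IL-17. The label was checked against marker genes. Of 13 T-cell and Th17 genes found in the annotation, 12 had a region within 1 kb of a start in all 4 replicates. Among them were Il17a, Il17f and Cd4, and Il22 had none. By the same measure 64.1% of all protein-coding genes had one, and so did 6 of 14 markers of olfactory sensory neurons.

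The 132 genes formed 3 runs, in which neighbours were under 100 kb apart. Run 1 held 21 genes from Olfr24 to Olfr855 (chr9:18751507-19586030), run 2 held 16 genes from Olfr857 to Olfr18 (chr9:19709433-20336094), and run 3 held 95 genes from Olfr160 to Olfr986 (chr9:37708964-40190134). The median gap between neighbours was 30.9 kb in run 1, 27.5 kb in run 2 and 16.8 kb in run 3. Gene bodies were 930 to 26047 bp long, with a median of 5480.5 bp, and 88 genes lay on the plus strand and 44 on the minus strand. With 5 kb added at each end, the runs made 3 stretches of 0.845, 0.637 and 2.49 Mb, 3.97 Mb in all. The same stretches also held 39 Olfr pseudogenes, 11 of them polymorphic, which were not counted as members. The comparison area was the 1 Mb on each side of the runs outside the stretches, 4.11 Mb with 72 protein-coding genes that did not reach into a stretch, called flanking genes below.

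The starts of these receptor genes are AT-rich and poor in CpG, the dinucleotide that is dense in most mammalian promoters. The sequences of 4 promoters, from 1 receptor gene at the end of run 1, 1 receptor gene beside the only gene inside run 3 that had accessible regions, and the zinc finger genes next to runs 1 and 3, show the contrast. They were chosen after the values were seen, come from RefSeq (GRCm38.p6, the mm10 build), and are printed 5′ to 3′ on the gene's strand with each CpG in capitals. Olfr855 is at chr9:19584261-19584510 (plus strand) and Olfr919 at chr9:38698377-38698626 (minus strand). Zfp317 is at chr9:19621841-19622090 (plus strand) and Zfp202 at chr9:40192066-40192315 (plus strand). The 2 receptor stretches precede RefSeq starts that lie inside the GENCODE gene bodies, chr9:19582617-19586030 and chr9:38696804-38703673. The CpG ratios and distances below were taken at the 5′ ends of the gene bodies. The zinc finger stretches lie just before their GENCODE gene bodies.
Olfr855: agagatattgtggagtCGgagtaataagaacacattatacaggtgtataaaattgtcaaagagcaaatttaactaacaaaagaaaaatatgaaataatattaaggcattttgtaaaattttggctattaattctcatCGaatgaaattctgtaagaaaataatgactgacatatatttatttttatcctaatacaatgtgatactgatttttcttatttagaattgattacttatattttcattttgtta
Olfr919: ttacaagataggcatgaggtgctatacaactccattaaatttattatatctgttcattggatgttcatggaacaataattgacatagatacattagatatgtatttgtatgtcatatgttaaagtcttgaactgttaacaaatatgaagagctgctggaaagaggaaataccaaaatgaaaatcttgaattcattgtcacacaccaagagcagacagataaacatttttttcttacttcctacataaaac
Zfp317: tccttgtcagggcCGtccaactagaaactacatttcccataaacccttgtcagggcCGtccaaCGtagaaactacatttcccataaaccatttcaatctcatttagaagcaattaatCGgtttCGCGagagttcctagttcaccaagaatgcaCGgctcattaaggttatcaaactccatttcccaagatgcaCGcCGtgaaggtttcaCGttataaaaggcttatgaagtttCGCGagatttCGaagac
Zfp202: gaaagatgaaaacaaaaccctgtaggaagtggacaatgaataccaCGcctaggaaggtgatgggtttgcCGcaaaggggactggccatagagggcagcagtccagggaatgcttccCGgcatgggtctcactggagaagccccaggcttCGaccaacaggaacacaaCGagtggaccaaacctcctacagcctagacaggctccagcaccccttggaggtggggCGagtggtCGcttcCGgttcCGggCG
The Olfr855 stretch holds 2 CpG and the Olfr919 stretch 0, against 13 for Zfp317 and 10 for Zfp202. No replicate had a region within 1 kb of a start of either receptor gene, and all 4 had one at both zinc finger genes.

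None of the 132 receptor genes had an accessible region within 1 kb of an annotated start in any replicate. The background is large: 14070 of the 21938 protein-coding genes, or 64.1%, had such a region in all 4 replicates, and so did 56 of the 72 flanking genes (77.8%). Of the 7 flanking genes left of run 1, only Chordc1 and Zfp558, named after their values were seen, had one in all 4. Olfr genes on other chromosomes were also mostly without one, with 28 of 1003 (2.79%) in all 4 replicates and 40 in at least 1. No receptor gene of chromosome 9 had a region anywhere in its body in any replicate. The 39 Olfr pseudogenes were alike, with 0 having a promoter region in any replicate.

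Within 5 kb of the gene body, 2 of the 132 genes (1.52%) had a region, the same 2 in every replicate. They were Olfr18, the last gene of run 2, and Olfr986, the last gene of run 3. Of all protein-coding genes 75.0% had a region that near in all 4 replicates, of the flanking genes 69 of 72 (95.8%), and of the Olfr genes elsewhere 73 of 1003 (7.28%). In both receptor genes the region lay beyond the 3′ end, its median summit 2496 bp from Olfr18 and 2212 bp from Olfr986.

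The stretches held 6 regions in each of the 4 replicates, and they were the same 6 places each time. Run 1 had 0, run 2 had 1 and run 3 had 5. This was 1.51 regions per Mb in every replicate, against 63.7, 66.9, 66.4 and 64.7 per Mb in the flanks of replicates 1 to 4 (65.4 ± 1.47, SD, n = 4). All 4 replicates were therefore far below their own flanks, with a 43.3 ± 0.97-fold lower density (SD, n = 4; exact two-sided sign-flip permutation test on the log2 ratios, p = 0.125). That p is the smallest that 4 replicates allow, so the design cannot reach 0.05. At the density of their flanks the stretches would hold 260 ± 5.85 regions, and at the density of the whole genome 123 ± 1.02.

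**Figure D1:**
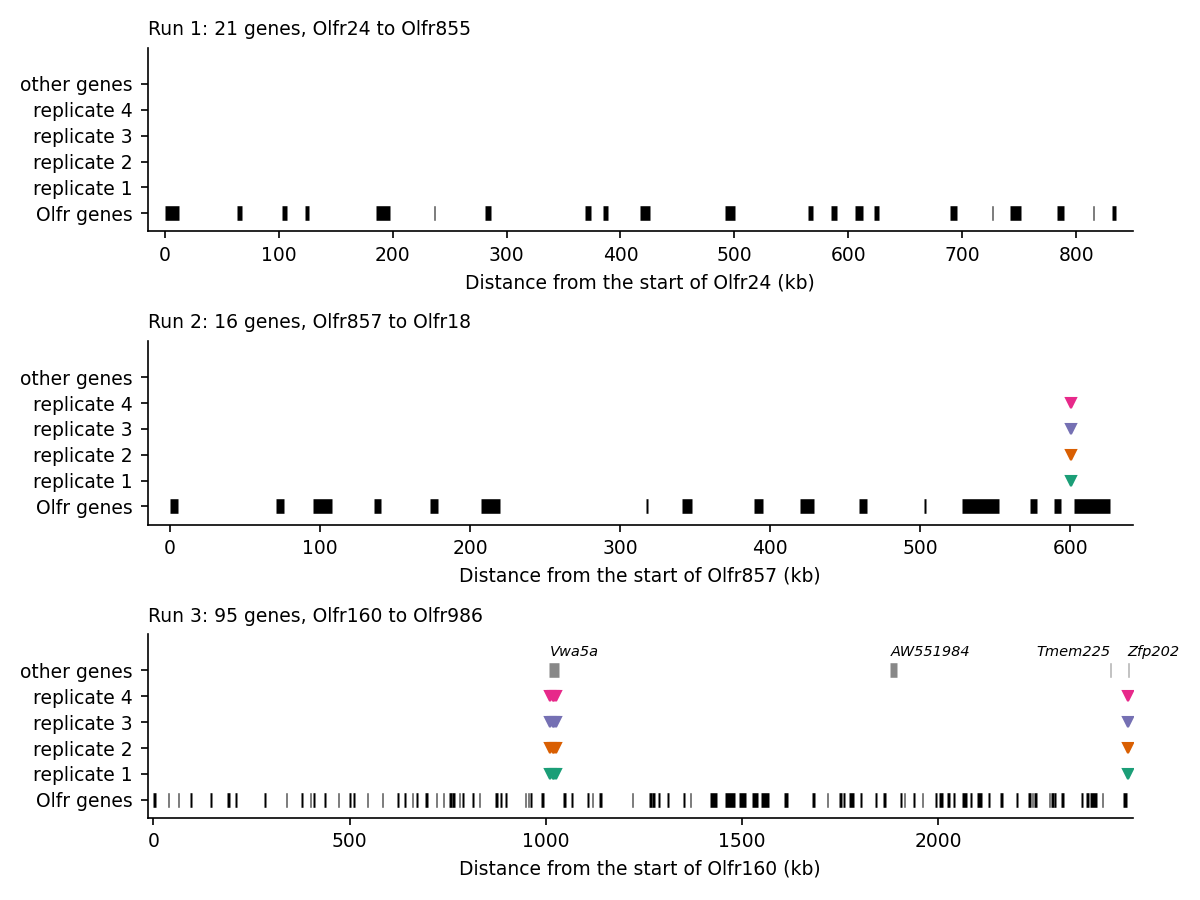
Position of the Olfr genes (black bars), other protein-coding genes (grey bars) and the summits of accessible regions in each replicate (triangles) along the 3 runs, by distance in kb from the start of the first gene. Run 1 holds no region, run 2 holds 1 near its right end, and run 3 holds 4 at Vwa5a, which overlap at this scale, and 1 at Zfp202.

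The share of bases covered by regions gave the same picture. It was 0.137%, 0.132%, 0.151% and 0.144% in the stretches and 5.31%, 5.26%, 5.67% and 5.55% in the flanks, in the order of the replicates. The stretches were covered 38.7 ± 0.94-fold less (SD, n = 4; exact two-sided sign-flip permutation test, p = 0.125), with all 4 replicates lower.

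The flanks themselves were uneven, and the size of the fold depended on which was used. The 1 Mb to the left of run 1 held 7, 7, 6 and 6 regions (6.5 ± 0.58 per Mb), and the 113 kb between runs 1 and 2 held 2, 2, 2 and 3. To the right of run 2 the density was 103.3 ± 6.08 per Mb, to the left of run 3 55.0 ± 2.58, and to the right of run 3 102 ± 4.08. Against the flank left of run 1 alone the stretches were 4.29-fold lower, and against the rest of the flanks 55.8-fold lower. These 2 comparisons were added after the data were seen. Against the whole of chromosome 9 outside the stretches (40.3 ± 0.38 per Mb) the density was 26.7-fold lower.

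**Figure D2:**
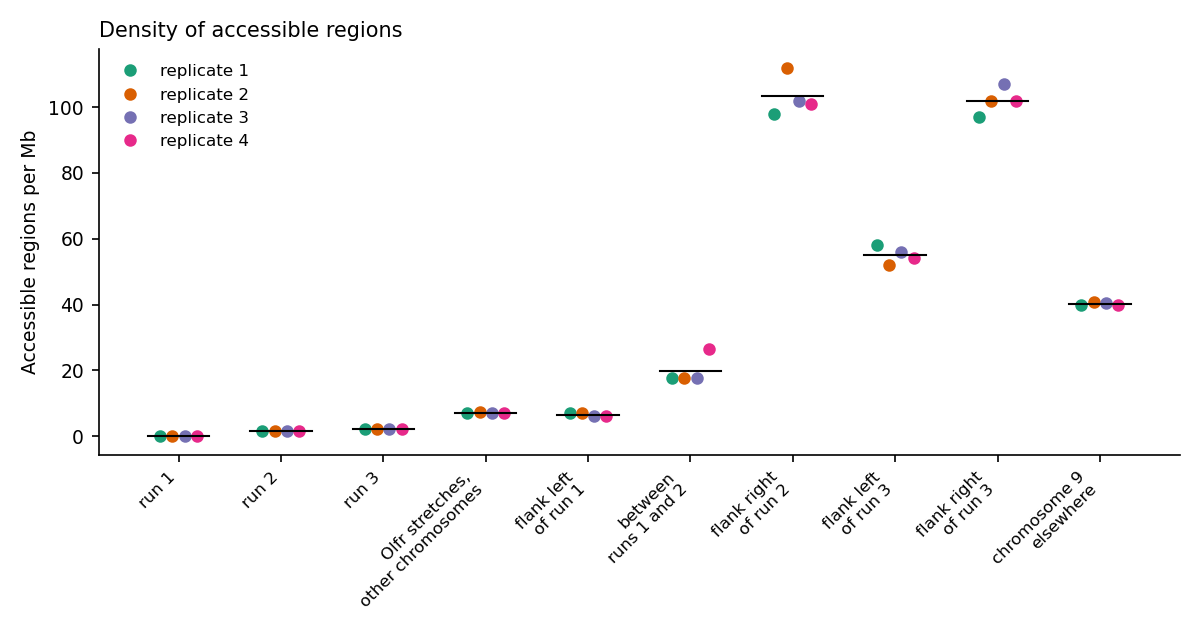
Accessible regions per Mb in the 3 Olfr stretches, the Olfr stretches of other chromosomes, each flank and the rest of chromosome 9, with 1 point per replicate and a line at the mean. The 3 stretches lie at 0, 1.57 and 2.01 per Mb, under the 6.5 of the flank left of run 1 and far under the 103.3 and 102 on the right of runs 2 and 3.

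Sequence that short reads can place only with difficulty was more frequent in the stretches. Of their positions 74.6% began a 31-base string that occurs once in the genome, against 86.3% in the flanks, and 48.5% of their bases were marked as repeats, against 35.6%. The flank left of run 1, which was also poor in regions, had 74.0% unique positions and 50.3% repeat bases. When only unique positions were counted, which mainly rescales both densities by these shares, the density was 37.2-fold lower. Regions lost because reads could not be placed are not measured by this. The receptor gene bodies were more unique than the stretches around them, at 87.6% of positions, against 91.6% in the flanking gene bodies. Among the 132 bodies the share ran from 43.5% to 100%, and it was over 90% in 73 of them. Repeats outside this measure, and the reads the authors masked, were not tested.

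Of the 6 regions, 5 touched a protein-coding gene that is not an olfactory receptor. Vwa5a, which encodes a protein with a von Willebrand factor type A domain, held 4, and Zfp202, a zinc finger gene whose first bases reach into the last 5 kb of the stretch, held 1 at its promoter. Once these genes, AW551984 and Tmem225 were removed with 5 kb on each side, 1 region remained in each replicate, or 0.257 per Mb. With such genes and 5 kb around them removed from the flanks too, a comparison added after the data were seen, 1.32 Mb of flank was left with 44, 45, 52 and 49 regions (36.1 ± 2.81 per Mb, SD, n = 4). The density in the stretches was then 140-fold lower, and it was 254-fold lower against the flanks with their genes kept. AW551984 and Tmem225, which also lie in run 3, had no region within 5 kb in any replicate.

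The region near no other protein-coding gene was the strongest of the 6. It lay in intergenic DNA at the right end of run 2, at chr9:20309241-20310069, between the 3′ ends of Olfr873 and Olfr18, 6057 and 2496 bp from its median summit. Its deposited signal value, the peak caller's measure of enrichment, which is not normalised between replicates, was 17.4, 17.8, 16.5 and 15.7 in replicates 1 to 4 (16.9 ± 0.96, SD, n = 4). The 4 values were close, and each placed the region near the top of its list. It ranked 1123, 1081, 956 and 2372 among all regions of its replicate, and 63, 57, 51 and 132 on chromosome 9. The 4 summits lay within 36 bp. Repeat-marked bases made up 56.5% of it and 83.8% of its positions were unique.

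The 300 bases around the median summit of that region, chr9:20309506-20309805 (mm10, plus strand), are shown because this was the only region of the stretches outside another protein-coding gene. Capitals mark matches, on either strand, to strings bound by AP-1 (TGANTCA), ETS factors (AGGAAG) and EBF factors (CCCNNGGG), in that order.
Region 1: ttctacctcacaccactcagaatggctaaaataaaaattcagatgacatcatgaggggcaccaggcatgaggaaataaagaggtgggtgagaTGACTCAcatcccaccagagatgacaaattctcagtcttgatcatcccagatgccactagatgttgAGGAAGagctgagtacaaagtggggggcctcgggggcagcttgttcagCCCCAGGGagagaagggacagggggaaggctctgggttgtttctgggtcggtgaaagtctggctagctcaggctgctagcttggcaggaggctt
The ETS string lay within 50 bp of the summit in all 4 replicates, as it did at 15.7 ± 0.24% of all summits (SD, n = 4). The AP-1 string was centred 55 bp to the left of the median summit and the EBF string 60 bp to the right. The AP-1 string lay within 50 bp of the summit in replicate 4 only, and the EBF string in replicate 3 only. A match is a string in the sequence and not a measured binding site.

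The 4 regions of Vwa5a lay at or near annotated starts of the gene and in its introns, in the gap between Olfr919 and Olfr920. The one at the first start, chr9:38717900-38719722, had signal values of 8.15, 8.89, 9.73 and 9.35 in replicates 1 to 4 (9.03 ± 0.68, SD, n = 4). The next, at a start inside the gene, chr9:38727949-38728918, was the strongest of the 4 at 13.5, 14.6, 11.7 and 13.4 (13.3 ± 1.21). Both were above the remaining regions of this gene in every replicate.

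An intronic region at chr9:38730405-38731097 was the weakest of all 6, at 3.64, 3.399, 3.53 and 3.49 (3.51 ± 0.10, SD, n = 4). The last, chr9:38733979-38734456, had values of 6.82, 6.61, 5.40 and 5.30 (6.03 ± 0.80), and its summit was at the same base in all 4 replicates. That base was at -234 bp from an annotated start inside the gene. In this region replicates 1 and 2, whose region names carry the library tag KS134, were above replicates 3 and 4, which carry KS136. The same order held in the intergenic region beyond Olfr18, in the strongest region of Vwa5a and in the region at Zfp202. At the first start of Vwa5a the order was the opposite, and in the weakest region the values of the tags overlapped. Over the whole lists the median signal value was 6.20 and 6.37 in replicates 1 and 2. It was 5.87 and 6.11 in replicates 3 and 4. The meaning of the tags is not explained, and their part in these values was not tested.

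Regions 3 and 5 of the 6, counted along the chromosome, carried a searched string within 50 bp of every summit, and 300 bases of each are printed for that reason. They are chr9:38728306-38728605 and chr9:38734127-38734426 (mm10, plus strand), with matches in capitals.
Region 3: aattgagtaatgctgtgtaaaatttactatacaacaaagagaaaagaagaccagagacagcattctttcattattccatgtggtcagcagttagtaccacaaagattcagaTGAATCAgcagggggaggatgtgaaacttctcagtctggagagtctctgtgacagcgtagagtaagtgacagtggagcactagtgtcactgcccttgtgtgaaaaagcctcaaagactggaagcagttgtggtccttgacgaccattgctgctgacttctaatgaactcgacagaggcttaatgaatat
Region 5: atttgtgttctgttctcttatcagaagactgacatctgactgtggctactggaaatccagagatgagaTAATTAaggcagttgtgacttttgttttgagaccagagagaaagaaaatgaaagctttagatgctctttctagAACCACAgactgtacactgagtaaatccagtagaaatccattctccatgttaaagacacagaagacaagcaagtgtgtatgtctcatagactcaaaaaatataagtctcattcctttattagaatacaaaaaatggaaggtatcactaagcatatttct
In region 3 the capitals mark an AP-1 string, which was present within 50 bp of 21.1 ± 0.22% of all summits (SD, n = 4). In region 5 the match nearest the summit is the RUNX string TGTGGTT, printed as its reverse complement and found at 5.04 ± 0.07% of all summits, and the other is the LHX2 string TAATTA. None of the 6 regions had the strings for EBF, LHX2, T-box (AGGTGTGA) or CTCF within 50 bp of all 4 summits. Among all summits these were found at 3.28%, 1.02%, 0.484% and 2.83%, so few matches among 6 regions carry little information.

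The sixth region, chr9:40191684-40193309, covered the promoter of Zfp202 and had signal values of 12.6, 14.0, 12.3 and 11.8 (12.7 ± 0.94, SD, n = 4). It was the only one of the 6 in CpG-rich DNA, with an observed over expected CpG ratio of 0.649 in the 1 kb around its summit, against 0.0315 to 0.188 in the other 5. It is also the region that put Olfr986 among the 2 genes with a region within 5 kb.

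**Figure D3:**
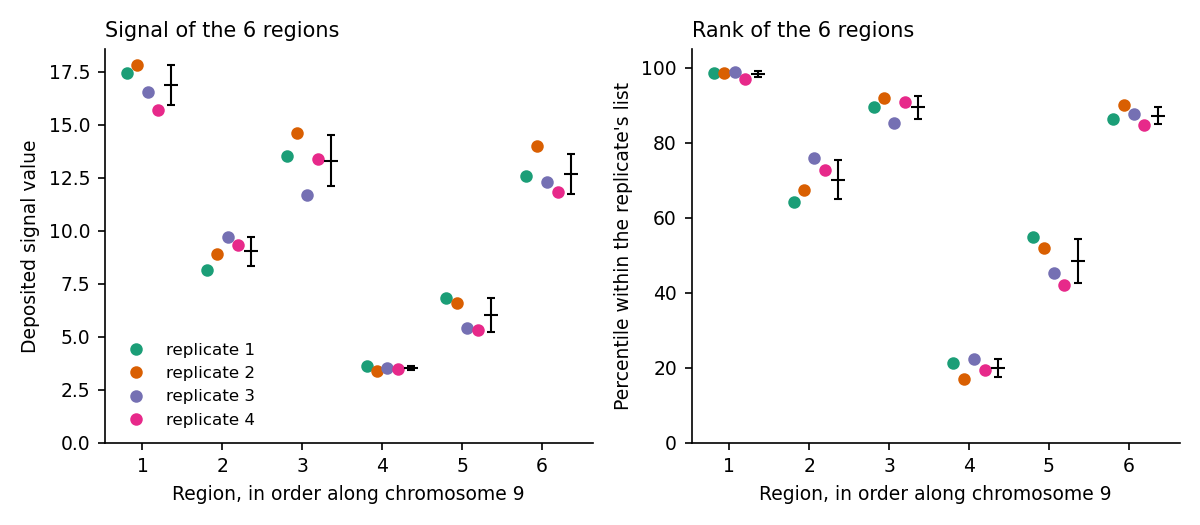
Deposited signal value (left) and percentile of that value within the replicate's own list (right) for the 6 regions of the stretches, numbered along the chromosome. Points are replicates and bars show the mean with SD, n = 4. Region 1, beyond Olfr18, has percentiles of 97.2 to 98.9, and region 4, in an intron of Vwa5a, 17.0 to 22.3.

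Set on the percentile scale, the few regions of the stretches were not weak. Their median percentile was 75.4, 78.9, 80.7 and 78.8 in replicates 1 to 4, against 48.1, 43.9, 46.2 and 45.4 in the flanks. The stretches were higher in all 4 replicates, by 32.5 ± 3.57 points (SD, n = 4; exact two-sided sign-flip permutation test, p = 0.125). This rests on 6 regions, of which 5 belong to Vwa5a and Zfp202.

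Most receptor genes stood far from any accessible region. From the 5′ end of the gene body to the nearest region the median was 259.0, 259.0, 259.0 and 256.9 kb in replicates 1 to 4 (258 ± 1.08, SD, n = 4). The 72 flanking genes had a median of 0, and the 1003 Olfr genes of other chromosomes one of 187 ± 18.3 kb. On average over replicates 109 of the 132 were over 100 kb away and 4 under 20 kb. The share over 100 kb was 82.6%, against 14.1% of all protein-coding genes and 61.7% of the Olfr genes on other chromosomes.

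The distances followed the position in the run. The extremes, named after their values were seen, were Olfr873 at 10.8 ± 0.05 kb, beside the intergenic region of run 2, and Olfr954, between Vwa5a and Zfp202 in run 3, at 722 ± 0.05 kb (SD, n = 4). At the left end of run 1 Olfr24 was 118 ± 0.73 kb away, and at its right end Olfr855 39.2 ± 0.003 kb. In run 2 Olfr857 was 81.5 ± 2.76 kb and Olfr18 26.1 ± 0.05 kb away. In run 3 the values were 58.6 ± 0.03 kb for Olfr160 and 10.8 ± 0.08 kb for Olfr986. The genes on either side of Vwa5a formed a low point inside run 3, with 14.3 ± 0.07 kb for Olfr919 and 17.9 ± 0.05 kb for Olfr920.

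**Figure D4:**
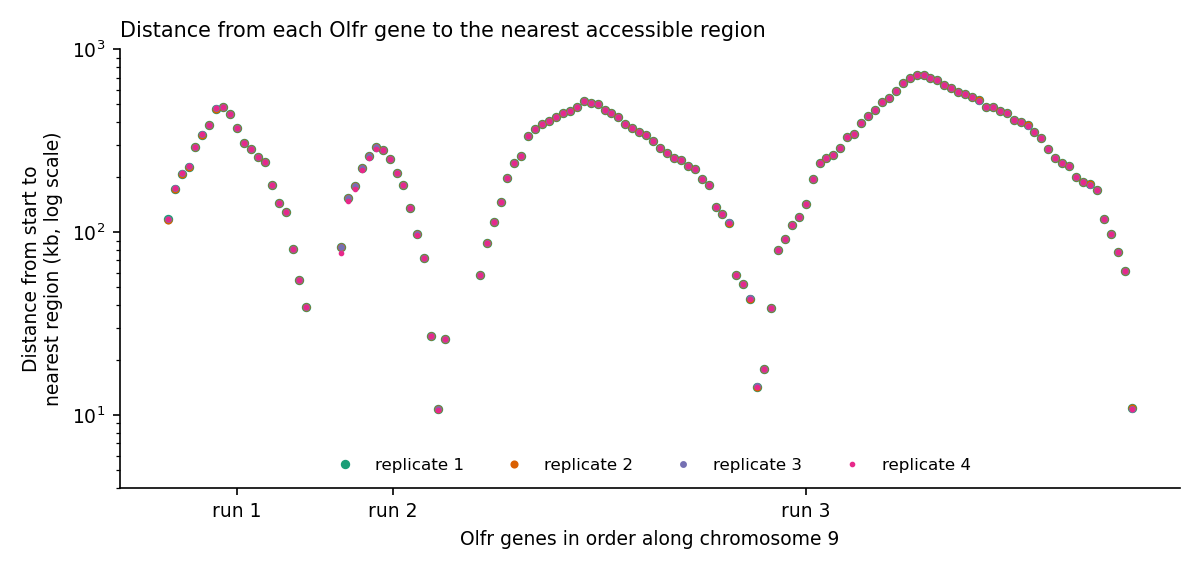
Distance in kb, on a log axis, from the 5′ end of each of the 132 Olfr genes to the nearest accessible region, in order along the chromosome and with 1 point per replicate. The replicates coincide for most genes, the largest value is 722 kb in run 3, and the lowest are 10.8 kb near the right ends of runs 2 and 3.

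All 132 gene bodies lay wholly within 5 spans without a region in any replicate. The longest of these, from Vwa5a to Zfp202, was 1457 kb long and held 54 genes. The span to the left of Vwa5a was 1060 kb with 41 genes, the one across run 1 was 975 kb with all 21 of its genes, and the one across most of run 2 was 677 kb with 15. Olfr18 stood alone in a span of 74.6 kb. By length these were numbers 6, 10, 12, 21 and 204 of the 5750 spans on chromosome 9, whose median was 6.57 kb. The 5 longest spans, up to 3095 kb, held no Olfr gene of the set, so spans of this length were not particular to receptor clusters.

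At the borders, the nearest other gene had a promoter region in all 4 replicates at 4 of 6 run ends. Zfp317 was counted at both ends between runs 1 and 2. Such a region was found in 64.1% of all protein-coding genes and 77.8% of the flanking genes. Zfp317, a zinc finger gene, stood 36.1 kb from Olfr855 and 59.7 kb from Olfr857 and had a promoter region in all 4 replicates. So did Zfp560, another zinc finger gene, 9.04 kb from Olfr18, and Zfp202, 2.18 kb from Olfr986. Muc16, a large mucin gene 77.0 kb from Olfr24, and Panx3, a pannexin channel gene 39.7 kb from Olfr160, had none in any replicate, although both had a region within 5 kb of the body in all 4. From the run end to the first region outward the distance was 105.4 ± 0.73 kb at Olfr24, 35.8 ± 0.003 kb at Olfr855, 81.5 ± 2.76 kb at Olfr857, 48.6 ± 0.02 kb at Olfr18, 51.4 ± 0.03 kb at Olfr160 and 1.63 ± 0.08 kb at Olfr986 (SD, n = 4). Thus the region-free DNA ended next to the last receptor gene only on the right of run 3.

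CpG content differed between receptor genes and their neighbours, and accessibility moves with it across the genome. In the 1 kb around the start the observed over expected CpG ratio had a median of 0.101 in the 132 genes, with a range of 0 to 0.387, against 0.583 in the flanking genes. Their GC content had a median of 35.0%, against 55.8%. Among the 7470 genes other than Olfr whose ratio lay in the members' range, 2256 (30.2%) had a promoter region in all 4 replicates, and among the 1985 within the members' interquartile range 355 (17.9%) did. Below a ratio of 0.1 the share was 12.1% for other genes and 0 of 64 for the receptor genes. From 0.1 to 0.2 it was 24.8% against 0 of 54, from 0.2 to 0.3 it was 36.9% against 0 of 12, and from 0.3 to 0.4 it was 48.1% against 0 of 2. The ratio was taken at the 5′ end of the gene body, while a promoter region could lie at any annotated start. A gene in a low class can thus have its region at another start. Dnmt1, a flanking gene named after its values were seen, had a promoter region in all 4 replicates and a ratio of 0.0588. Its nearest region lay 1.34 to 1.39 kb from that end. The classes thus do not match accessible promoters strictly by CpG content. The part of CpG content in the result was not tested beyond these classes.

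**Figure D5:**
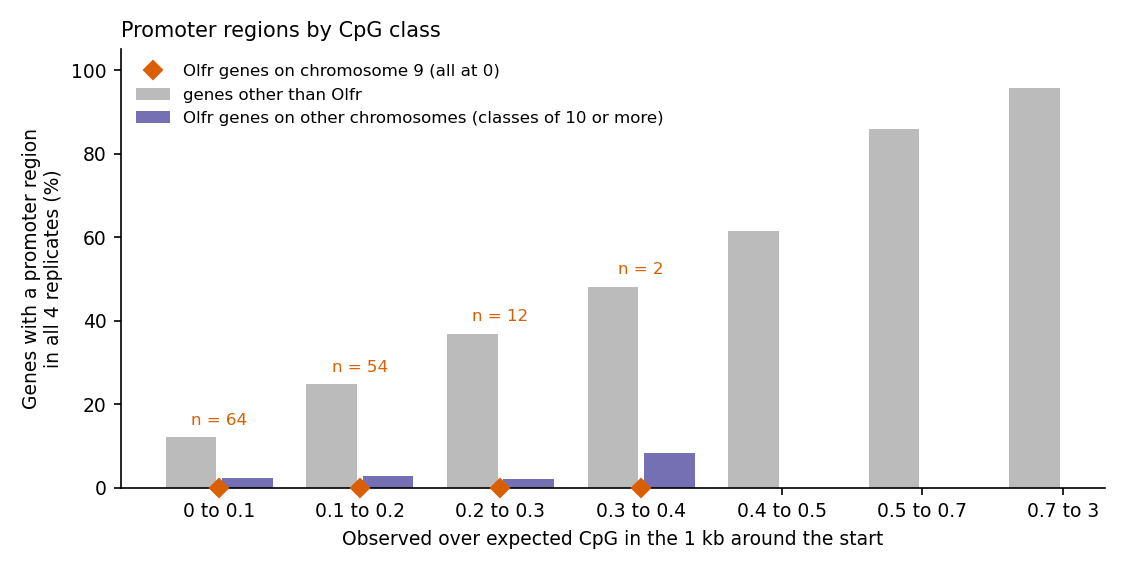
Percent of genes with a promoter region in all 4 replicates, by class of CpG ratio, for genes other than Olfr (grey bars), Olfr genes on other chromosomes (purple bars, classes of 10 or more genes) and the 132 Olfr genes of chromosome 9 (diamonds at 0, with their number in each class). Grey bars rise from 12.1% to 95.7% while the diamonds stay at 0 in all 4 classes that hold members. The ratio is that at the 5′ end of the gene body, and a promoter region could lie at any annotated start.

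The RefSeq promoter table, which covers 250 bases before to 50 after a start, matched 109 of the 132 genes, with 110 promoters. They had a median of 1 CpG and a range of 0 to 8, and 39 of them (35.5%) had none. Over all 32851 promoters in the table the median was 7 and 5.43% had none, and the flanking genes had a median of 17. The LHX2 string TAATTA was in 25.5% of the receptor promoters and 5.29% of all, and the EBF string CCCNNGGG in 1.82% and 13.7%. The median GC content of these promoters was 34.0% for the receptor genes and 52.7% for all, which by itself changes how often AT-rich and GC-rich strings occur. A RefSeq start can lie inside the GENCODE gene body, as for Olfr855 and Olfr919. The RefSeq values are therefore not always from the 5′ ends used for the CpG ratios.

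Olfr stretches on other chromosomes, joined by the same rule, held 7.13 ± 0.22 regions per Mb (SD, n = 4), above the 1.51 of chromosome 9 in every replicate. They also held more other protein-coding genes, 64 in 23.4 Mb against 4 in 3.97 Mb on chromosome 9. Regions at those genes were not removed here, so the difference is not shown to concern the Olfr genes. The chromosomes ranged widely. Chromosome 2, with 294 Olfr genes and 6 other genes in 6.68 Mb, had 0.225 ± 0.086 per Mb. Of its Olfr genes, 0 had a region within 5 kb in all 4 replicates. Chromosome 1, with 27 Olfr genes and 4 other genes in 0.649 Mb, had 20.03 ± 1.26 per Mb. A low density was thus not particular to chromosome 9.

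The genes that serve olfactory receptors in sensory neurons were scored in the same way. Of 15 signal transduction genes 9 had a promoter region in all 4 replicates, among them Gnal (the olfactory G protein alpha subunit), Gnb1 and Gng13 (G protein beta and gamma subunits), Ric8b (a chaperone of that alpha subunit), Adcy3 (adenylyl cyclase) and the phosphodiesterases Pde1c and Pde4a. The other 6 had none in any replicate: Cnga2, Cnga4 and Cngb1 (subunits of the cyclic nucleotide-gated channel), Ano2 (a calcium-activated chloride channel), Omp (olfactory marker protein) and Stoml3. Of 6 trafficking genes 4 were accessible, Reep1, Hspa1a, Grk3 and Arrb2, and the receptor chaperones Rtp1 and Rtp2 were not. All 25 genes listed for receptor gene choice had a promoter region in all 4 replicates, among them Lhx2, Ldb1, Emx2, Ebf1, Ebf2, Ebf3, Ebf4 and the histone demethylase gene Kdm1a. These shares stand beside the 64.1% over all genes, and an accessible promoter does not measure transcription. CpG ratios differed too. The median was 0.877 in the 25 genes. From a ratio of 0.7 up, 95.7% of genes other than Olfr had a promoter region in all 4 replicates. Among signal transduction genes the lowest ratio was 0.484 in the 9 with a region, and the highest was 0.394 in the 6 without. Trim28, in the gene choice list, had a region at an annotated start and a ratio under 0.2 at the 5′ end of its body. Whether the region lay at that end was not examined. The part of CpG content in these shares was not tested. Of 14 markers of olfactory sensory neurons, some of them also in the lists above, 6 had a promoter region in all 4 replicates and 10 a region within 5 kb of the body. The remaining 4, Omp, Cnga2, Rtp1 and Rtp2, had no region within 5 kb in any replicate.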

How the data were processed

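Accessibility was measured by ATAC-seq in 4 replicates of Th17 cells, 1 group. The authors deposited 1 list of regions per replicate in narrowPeak format on mm10, each made from that replicate's own alignments per the labels' notes. Which aligner and peak caller produced them is not given in the sources used here. The deposited signal value is the peak caller's measure of a region's enrichment. Its significance was deposited as −log10 p and −log10 q. The lowest −log10 q in the lists is 1.00, so they are cut at a threshold and read depth is unknown. The deposited summit is an offset from the region's start. Words in the region names refer to masking, deduplication and sorting. The names also hold ASTARR.insert and 72hrs, whose meaning is not explained; the assay is given here as labelled.

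Only the 19 autosomes, X and Y were used. A gene counted as having a promoter region when a region overlapped, by at least 1 bp, the 1 kb on either side of any of its annotated starts. Overlapping regions of different replicates were merged. A percentile ranks a signal value within its own list. Neighbouring Olfr genes under 100 kb apart were joined, and flanks reached 1 Mb. Unique positions are those whose 31-base string occurs once in the genome on either strand. Motif strings were searched on both strands within 50 bp of a summit; 1 searched string is not reported here. Stretches and flanks were compared within each replicate by an exact two-sided sign-flip test over the 4 replicates. Genes were named by rule: members with a promoter region, run ends, members closest to the strongest and weakest regions, the other genes inside or beside a run, and examples of the pathway list in list order; exceptions are marked. Members, lists and tests were chosen with earlier results of these data known. Alternatives covered thresholds, windows, flanks and leaving out each replicate. The counting code was tested on simulated data. Python 3.11.15, numpy 2.4.6, pandas 2.3.3 and scipy 1.17.1 were used.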

Additional observations from a re-analysis of the deposited data

Results flagged for a closer look

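Of 36 sets of 4 replicate values checked, 2 had 1 replicate far from the other 3, and chance flags about 1 in 20 such sets. The signal percentile of the intergenic region beyond Olfr18 was 97.2 in replicate 4 and 98.7 to 98.9 in the others. The distance from Olfr857, at the left end of run 2, to the nearest region was 77.4 kb in replicate 4 and 82.9 kb in the others.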

How the results depend on the processing

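Of 83 recomputed values, 79 kept their direction or stayed within 1.5 times the count, 4 moved and 0 reversed. With the promoter window widened to 5 kb on each side, 1 Olfr gene, Olfr986, had a region in all 4 replicates in place of 0. Counting the gene body only, 0 genes had one in place of the 2 with 5 kb added. The 6 shared regions became 2 when only gene bodies with 5 kb were kept and 1 without the other protein-coding genes. The density was 4.29-fold to 254-fold lower than the comparison area over all alternatives and the covered share 4.07-fold to 299.9-fold lower. The lowest values came from the flank left of run 1, added after seeing the data, and the highest from leaving out other protein-coding genes in the stretches but not in the flanks. Removing them from both, also added later, gave 140-fold and 126-fold; counting gene bodies with 5 kb only gave 66.0-fold for the density. The rest of chromosome 9 as comparison gave 26.7-fold and 21.8-fold. The difference in median percentile ranged from 19.98, with the strongest 50000 regions, to 57.1 points, with those genes removed from both. Leaving out each replicate gave log2 ratios of -5.45 to -5.43 for density and -5.29 to -5.26 for the covered share, and kept the counts at 0, 2 and 6. No replicate block between groups applies, since there is 1 group. The lists give no read depth, so an Olfr gene without a region may still have weak signal.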

Other observations

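Other families of chemosensory receptors, taken by symbol as vomeronasal, taste and formyl peptide receptor genes after the data were seen, had values in the range of the Olfr genes. Of 376 such genes 5 (1.33%) had a promoter region in all 4 replicates and 15 (3.99%) had a region within 5 kb. Their median distance to the nearest region was 235 ± 2.74 kb (SD, n = 4), and their median promoter CpG ratio was 0.0973.

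In 200 kb steps outward from the run ends to 1 Mb, the 4 outer borders differed in the number of region summits (mean ± SD, n = 4). To the right of run 2 it was 8.75 ± 0.96 in the first step and 29.0 ± 0.82 in the last. To the left of run 1 it was 3.25 ± 0.96 in the first step and 0 in the last, and to the left of run 3 13.3 ± 0.50 and 11.3 ± 0.96. To the right of run 3 it was 22.3, 18.5, 17.8, 13.3 and 30.3 in successive steps.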
